A study of Homo sapiens with 26 samples.

Results

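The 10 genes ODC1, AMD1, SRM, SMS, OAZ1, OAZ2, AZIN1, SAT1, SMOX and PAOX, which encode the enzymes that make and break down polyamines and the proteins that control the first step, were followed across KELLY neuroblastoma cells in culture and in xenografts. They were chosen by symbol as a pathway under MYCN control, not by their measured values, but with earlier results of these data known. All 10 are present among the 26485 genes of the deposited RNA-sequencing tables. KELLY is a human neuroblastoma cell line with an amplified MYCN gene. The study asked what follows when RUNX1T1, a transcriptional co-repressor, is depleted by an inducible short hairpin RNA. In culture, 3 stable lines were compared, each with 3 libraries after DMSO and 3 after 72 h of doxycycline, the drug that switches on the vector. The EV line carried the empty vector that the labels call F1HUTG, and the sh4 and shAMB lines each carried a hairpin against RUNX1T1 in that inducible lentiviral vector, which also expresses GFP. The methods describe sorting on GFP for another cell line and do not say whether the KELLY lines were clones. The 8 tumours, titled Kelly PDX cells, were KELLY xenografts carrying 1 inducible hairpin in immunodeficient NOD SCID gamma mice. Of these, 4 are labelled control, with genotype WT and control food, and 4 are labelled RUNX1T1 KO, with doxycycline food. No EV tumour was included, so doxycycline food and hairpin induction cannot be told apart in the tumours, and the labels do not say which hairpin they carried. By the methods it was the one based on an Ambion sequence, which the labels do not tie to shAMB. "KO" is the label's word for what the methods describe as a hairpin knockdown.

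Polyamines are small positively charged molecules that bind nucleic acids and are needed for growth. Ornithine decarboxylase, the product of ODC1, makes putrescine from ornithine. Adenosylmethionine decarboxylase, the product of AMD1, makes the aminopropyl donor with which SRM, spermidine synthase, turns putrescine into spermidine, and SMS, spermine synthase, turns spermidine into spermine. Antizymes such as OAZ1 and OAZ2 bind ornithine decarboxylase and send it to the proteasome, and the antizyme inhibitor AZIN1 binds antizyme in its place. SAT1 acetylates spermidine and spermine, PAOX oxidises the acetylated forms, and SMOX oxidises spermine directly. ODC1 is a long-known target of MYC proteins, which bind the E-box sequence as partners of MAX, and its high expression is a known feature of MYCN-amplified neuroblastoma.

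The promoter windows of ODC1 and SRM are shown because they are the members whose windows hold the canonical E-box. RefSeq promoter windows (GRCh38.p14, 300 bases around a start) were at hand for 7 of the 10 members, in 10 windows, and none was at hand for SMOX, PAOX or AZIN1. CACGTG, which reads the same on both strands, occurred in 2548 of 35116 windows (7.26%), and 2396 of 27305 genes (8.77%) had at least 1. It was found once for SRM and in a pair of places for the second ODC1 start, on the minus strand in both genes. No window of AMD1, SMS, SAT1, OAZ1 or OAZ2 held it, and the main ODC1 start instead held 2 copies of CACGCG (either strand), a form found in 11.43% of windows. The 30 bases around each CACGTG are given 5′ to 3′ on the gene's strand, with the motif in capitals.
SRM, chr1:11060200-11060229, motif starting at -199 from the start and outside all 6 annotated transcripts: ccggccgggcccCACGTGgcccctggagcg
ODC1, chr2:10448024-10448053, motif starting at -29 from the second start, in an intron of 3 transcripts and outside the other 3: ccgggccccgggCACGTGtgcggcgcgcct
ODC1, chr2:10447990-10448019, motif starting at 6 from the second start, in an exon of 2 transcripts, an intron of 3 and outside 1: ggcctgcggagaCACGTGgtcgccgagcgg
These are matches of letters, and no binding was measured here.

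Total counts were 35115915 to 54736733 in the 18 culture libraries and 47346063 to 62378060 in the 8 tumours. The culture table marks columns as Neg and Pos, which were read as DMSO and doxycycline, and the direction of every culture comparison rests on that reading. RUNX1T1 RNA, on the counts as deposited, did not pass the test in any comparison of induced with uninduced samples, with mean CPM (counts scaled to library size) of 31.8 after doxycycline and 34.3 after DMSO in sh4, 42.5 and 40.9 in shAMB, and 30.2 and 35.5 in the KO and control tumours. With the GC and gene length trends described next removed, RUNX1T1 was lower in sh4 (-0.21 on the log2 scale, adjusted p = 0.00126) and in the KO tumours (-0.40, adjusted p = 0.00689) and did not pass in shAMB (-0.05, adjusted p = 0.315). Against the EV effect with trends removed, none of MYCN, MAX and RUNX1T1, the 3 reference genes tested, was lower in sh4. The tumours had no EV group for such a comparison. The check of the labelled depletion by RNA thus depended on this setting, and in sh4 it did not pass against the empty vector. Summed human endothelial and leukocyte markers lay between 0.558 and 2.67 CPM. For the fibroblast and stroma markers the sum was 48.5 to 82.0 in the control tumours and 74.9 to 116 in the KO tumours. In the culture libraries the same sum ran from 70.8 (EV after DMSO) to 131 (sh4 after doxycycline). These markers were thus counted at such levels in cultures of the cell line alone. How mouse reads of the host were handled is not given in the sources used here, and their part in the tumour values was not tested. In bulk samples, fewer cells of a type and less RNA per cell cannot be told apart.

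Libraries also differed in how strongly counts depended on the GC content of the gene. This was expressed as a slope, the log2 change in a gene's level, relative to its mean over libraries, for each 10% of GC. It ran from -0.31 to -0.15 in the shAMB DMSO libraries and from 0.04 to 0.24 in the shAMB doxycycline libraries, so that those groups did not overlap. In sh4 it ran from -0.01 to 0.29 after DMSO and from -0.21 to 0.25 after doxycycline, and in EV from -0.25 to 0.07 and from -0.02 to 0.09. The control tumours spanned -0.26 to 0.11 and the KO tumours -0.27 to 0.26. The members range from 38.08% GC (AZIN1) and 39.10% (AMD1) to 61.23% (OAZ1), 63.01% (PAOX) and 63.65% (SRM). Values with the GC and gene length trends of each library removed are therefore given beside the members they move.

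Per kilobase, ODC1 was the most abundant of the 10 genes in all 8 groups and SAT1, SMOX and PAOX the 3 least abundant. As RPKM, which is CPM per kilobase of gene, ODC1 reached 455 ± 7.82 (SD, n = 3) in EV after DMSO. SMS (131 ± 8.48) and OAZ1 (106 ± 22.1) followed and overlapped each other. AZIN1 (74.3 ± 4.71) and AMD1 (68.6 ± 5.42) also overlapped, as did OAZ2 (47 ± 2.47) and SRM (39.1 ± 7.33). SAT1 (2.38 ± 0.118), SMOX (0.457 ± 0.149) and PAOX (0.0713 ± 0.0198) were separated from each other and from the rest. The order changed after induction mainly through SMS, OAZ1 and AMD1. SMS went from rank 3 in sh4 after DMSO to rank 6 after doxycycline (42.0 ± 3.65), AMD1 from rank 5 to 7 in shAMB (29.0 ± 2.16), and OAZ1 from rank 2 in the control to 4 in the KO tumours (70.5 ± 20.7, n = 4). In culture PAOX had 1 to 26 counts per library and passed the filter on low counts only through the shAMB doxycycline group (18 to 26 counts), so its higher level there is not support for a change. The other 9 members were above the filter's level in all libraries. PAOX was above it in 6 of the 8 tumours, where 4 were needed and the control group alone fell short, so its tumour rise is not support either.

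**Figure D1:**
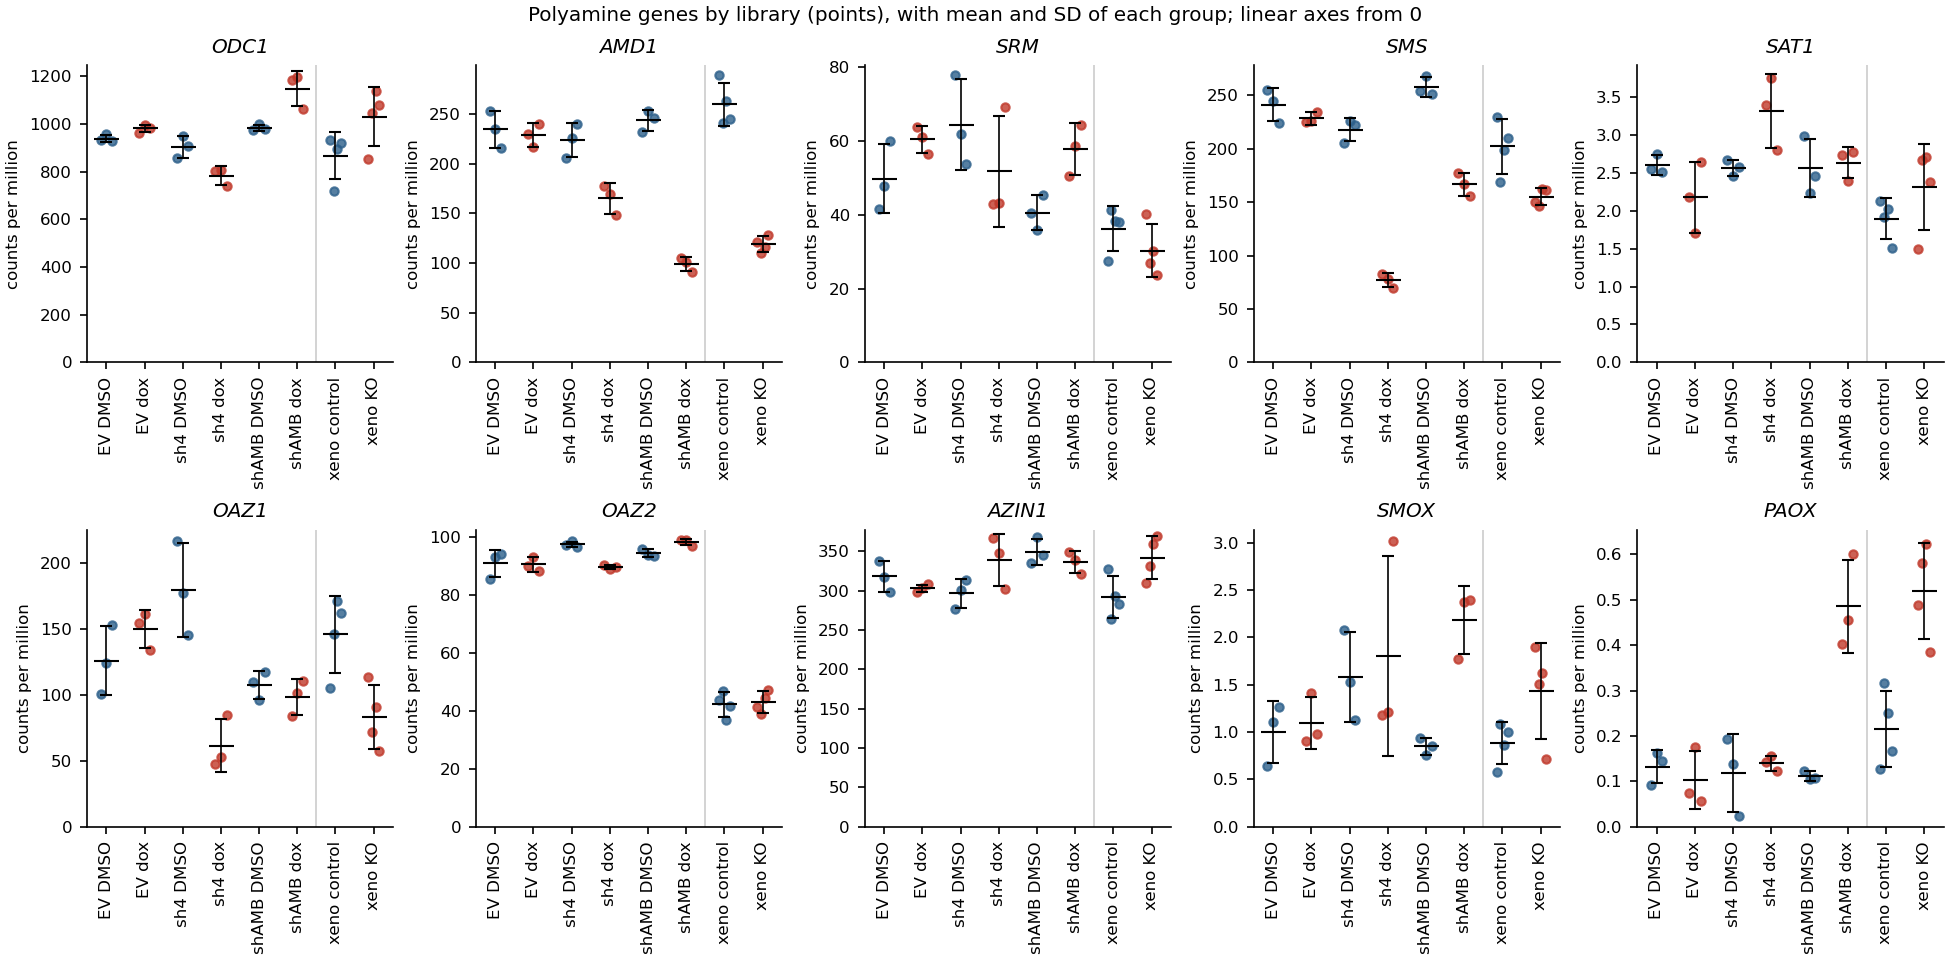
CPM (linear axes from 0) of the 10 polyamine genes in each library, by group, with blue points for uninduced and red for doxycycline samples, and with bars for the mean and SD (n = 3 in culture, n = 4 in tumours). AMD1 and SMS sit lower after doxycycline in sh4, shAMB and the tumours with no overlap, and in EV they do not separate.

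The 3 culture comparisons of doxycycline with DMSO and the tumour comparison ask whether induction moved the pathway. In EV, none of the 10 genes passed the threshold of an adjusted p under 0.05, in edgeR's quasi-likelihood test over 14905 genes, where 0.0134% of genes rose and 0.0805% fell. At an unadjusted p under 0.05 the count was also 0, and it was 0 with DESeq2 and with limma on TPM. In sh4, 1 member rose and 5 fell, against 22.9% and 18% of all genes. In shAMB, 4 rose and 2 fell, against 37.6% and 28.4%, where 1 of the 4 is PAOX, which entered the test only through the group where it is high. In the tumours, 1 rose and 3 fell, against 21.2% and 19.9% of 15960 genes. The 1 is PAOX, which would not have passed the filter on the control tumours alone. Without the first KO tumour 3 rose and 4 fell, beside 3548 and 3530 of 16119 genes. Median log2 changes were -0.16 over the members and -0.0046 over all genes in sh4, 0.05 and 0.10 in shAMB, and 0.13 and 0.02 in the tumours. With trends removed, 3 members were higher and 4 lower in sh4 with a median of 0.02, 4 and 4 in shAMB with 0.05, and 3 and 3 in the tumours with 0.13. Over all genes at that setting, 4902 were higher and 2944 lower of 14905 in sh4, and 4927 and 5472 in shAMB. In the tumours 4014 and 4072 of 15960 were. Past the threshold with a change of at least 2-fold were 2 members in sh4 (5.03% of all genes) and none in EV (0%). There were 3 in shAMB (17.9%) and 2 in the tumours (12.5%), PAOX included in both. Before induction, no member passed the threshold between sh4 and EV after DMSO (0.597% of genes higher and 0.523% lower), with 3 at an unadjusted p under 0.05. None passed between shAMB and EV (1.11% and 0.416%), with 0 at an unadjusted p under 0.05. DESeq2 and limma on TPM also gave 0 for both. Comparisons between lines share libraries and are not independent.

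**Figure D2:**
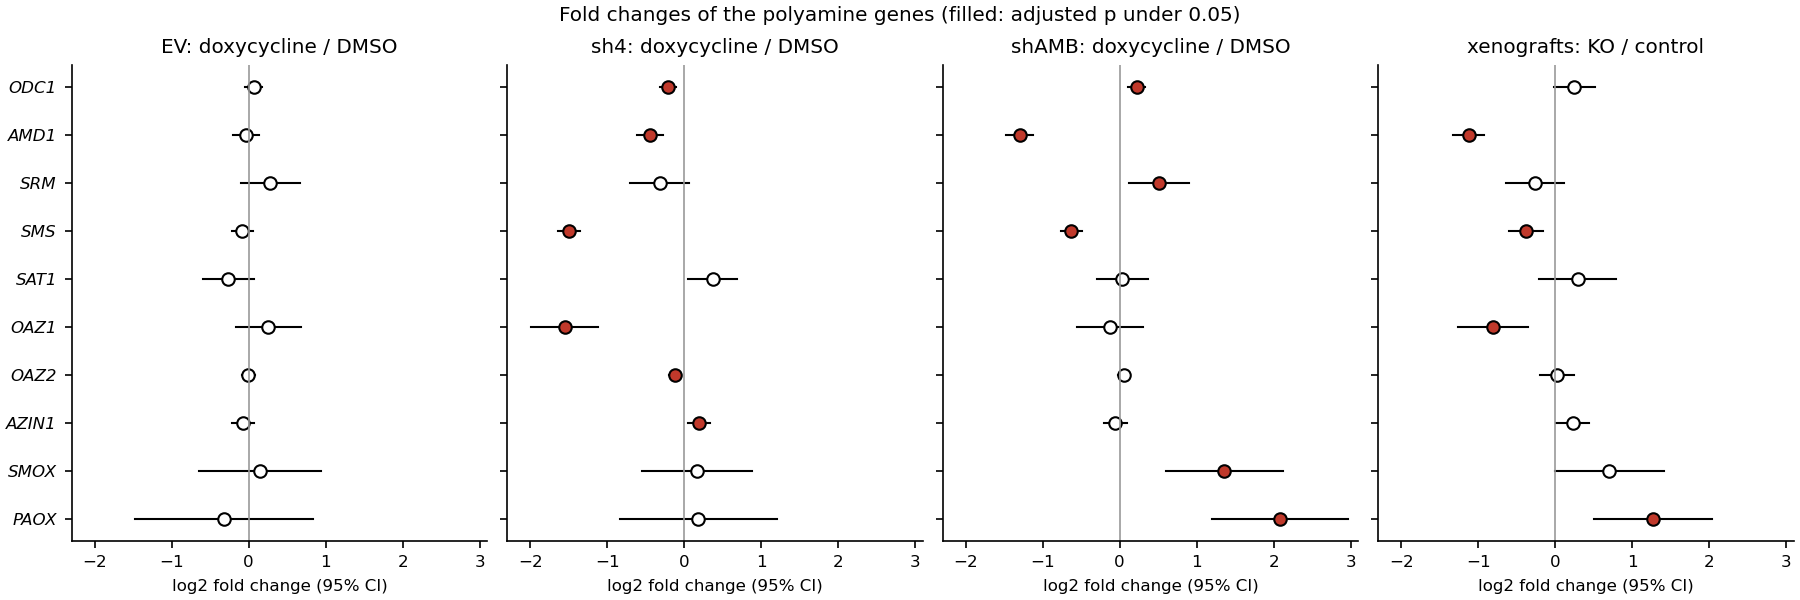
Log2 fold changes of the 10 genes with 95% confidence intervals for doxycycline against DMSO in each line and for KO against control tumours, filled where the adjusted p was under 0.05. AMD1 and SMS are filled and below 0 in sh4, shAMB and the tumours, at -0.44, -1.30 and -1.12 for AMD1 and -1.497, -0.63 and -0.38 for SMS. PAOX is filled in shAMB, where it passed the filter only through its high group. It is also filled in the tumours, where it would not have passed without the KO group.

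ODC1 (chr2:10439968-10448327, minus strand, GRCh38), the gene of the first enzyme, moved little and in opposite directions under the 2 hairpins. In EV it measured 930.0, 957 and 928 CPM after DMSO and 963, 995 and 983 after doxycycline, which did not overlap either and did not pass the test (0.06, adjusted p = 0.672). It measured 855, 948 and 909 in sh4 after DMSO and 803, 807 and 739 after doxycycline. The groups did not overlap and ODC1 fell by 0.21 on the log2 scale (SE 0.05, adjusted p = 0.00386). In shAMB it measured 972, 998 and 979 after DMSO and 1183, 1195 and 1061 after doxycycline, again without overlap, and rose by 0.22 (SE 0.05, adjusted p = 0.00126). Against the EV effect the shAMB effect did not pass (0.16, adjusted p = 0.0855), and it did with trends removed (0.22, adjusted p = 0.0159), on TPM (0.37, adjusted p = 0.000204) and without the third shAMB doxycycline library (0.21, adjusted p = 0.0176). The difference between the 2 effects was -0.43 (SE 0.07, adjusted p = 0.000118). In the tumours it was 930.0, 719, 896 and 921 in control and 853, 1044, 1139 and 1080.1 in KO, which overlapped (0.25, 95% interval -0.02 to 0.52, adjusted p = 0.128). The fall in sh4 was -0.03 with an adjusted p of 0.621 on TPM values, and had an adjusted p of 0.0567 when only the 6 sh4 libraries were fitted. The tumour difference passed with trends removed (0.33, adjusted p = 0.0306) and without the first KO tumour (adjusted p = 0.0353).

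AMD1 (chr6:110814617-110895713, plus strand) fell under both hairpins and in the tumours. Its CPM were 253, 235 and 216 in EV after DMSO and 230.0, 216 and 239.9 after doxycycline. In sh4 they were 206, 226 and 239.7 after DMSO and 178, 169 and 148 after doxycycline, and in shAMB 232, 253 and 246 against 105, 101 and 90.9. All sh4 and shAMB doxycycline libraries lay below all DMSO libraries of their line, and the lower level was in shAMB. The log2 changes were -0.44 in sh4 (SE 0.08, adjusted p = 0.000357) and -1.30 in shAMB (SE 0.08, adjusted p = 1.7e-09), the latter 2.46-fold lower. The shAMB effect was the larger, by 0.86 (SE 0.11, adjusted p = 1.1e-05). The control tumours had 289, 241, 263 and 245 and the KO tumours 121, 110.4, 116 and 128. The groups were far apart, and AMD1 fell by 1.12 (SE 0.09, adjusted p = 1.12e-05), 2.18-fold lower. These 3 falls passed the threshold under every alternative run, with log2 changes of -0.51 to -0.27, -1.38 to -1.12 and -1.19 to -1.08. AMD1 has 5 named pseudogenes, so reads shared with them could be split between copies.

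The aminopropyl transferases SRM and SMS behaved differently. SMS (chrX:21940709-21994837, plus strand), which completes spermine, measured 205, 225 and 222 CPM in sh4 after DMSO and 83.1, 78.4 and 69.8 after doxycycline. The groups were far apart, and SMS fell by 1.497 (SE 0.07, adjusted p = 1.39e-10), 2.82-fold lower, a change ranking 102 from the lowest of 14905 genes. In shAMB it measured 254, 268 and 251 after DMSO and 177, 167 and 156 after doxycycline. It fell there by 0.63 (SE 0.07, adjusted p = 6.14e-07), and the difference between the hairpins was -0.87 (SE 0.09, adjusted p = 1.34e-06). In the tumours the control values were 230.0, 169, 199 and 209.9 and the KO values 150.2, 147, 163 and 161. The groups did not overlap and SMS fell by 0.38 (SE 0.10, adjusted p = 0.0108), although the adjusted p was 0.655 on TPM values. In EV it measured 255, 244 and 224 after DMSO and 224, 225 and 235 after doxycycline, which overlapped.

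SRM (chr1:11054589-11060018, minus strand), the spermidine synthase gene and the most GC-rich member, could not be given a direction. Its CPM were 40.4, 36.1 and 45.4 in shAMB after DMSO and 50.4, 58.8 and 64.4 after doxycycline, and it rose by 0.51 (SE 0.18, adjusted p = 0.0225). Leaving out the first or the second DMSO library, or the second or the third doxycycline library, of shAMB ended that call, with adjusted p between 0.0527 and 0.0899. With the GC and length trends removed the sign reversed, to -0.26 with an adjusted p of 0.00997. In sh4 it measured 77.9, 61.9 and 53.7 after DMSO and 43.0, 43.1 and 69.3 after doxycycline, which overlapped (-0.32, adjusted p = 0.177), while without the third doxycycline library the change was -0.58 (adjusted p = 0.00559). The difference between the hairpins was -0.83 (adjusted p = 0.0118), and 0.44 with trends removed (adjusted p = 0.00277), past the threshold in opposite directions. Across libraries within a group SRM followed the GC slope, with a Pearson correlation of 0.98 over 18 culture libraries and 0.971 over 8 tumours, given as a description of libraries that share their depth and handling. In the tumours it was 27.5, 41.3, 38.4 and 38.0 in control and 40.2, 27.1, 30.1 and 23.7 in KO (-0.26, adjusted p = 0.253), and without the first KO tumour the adjusted p was 0.0342.

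**Figure D3:**
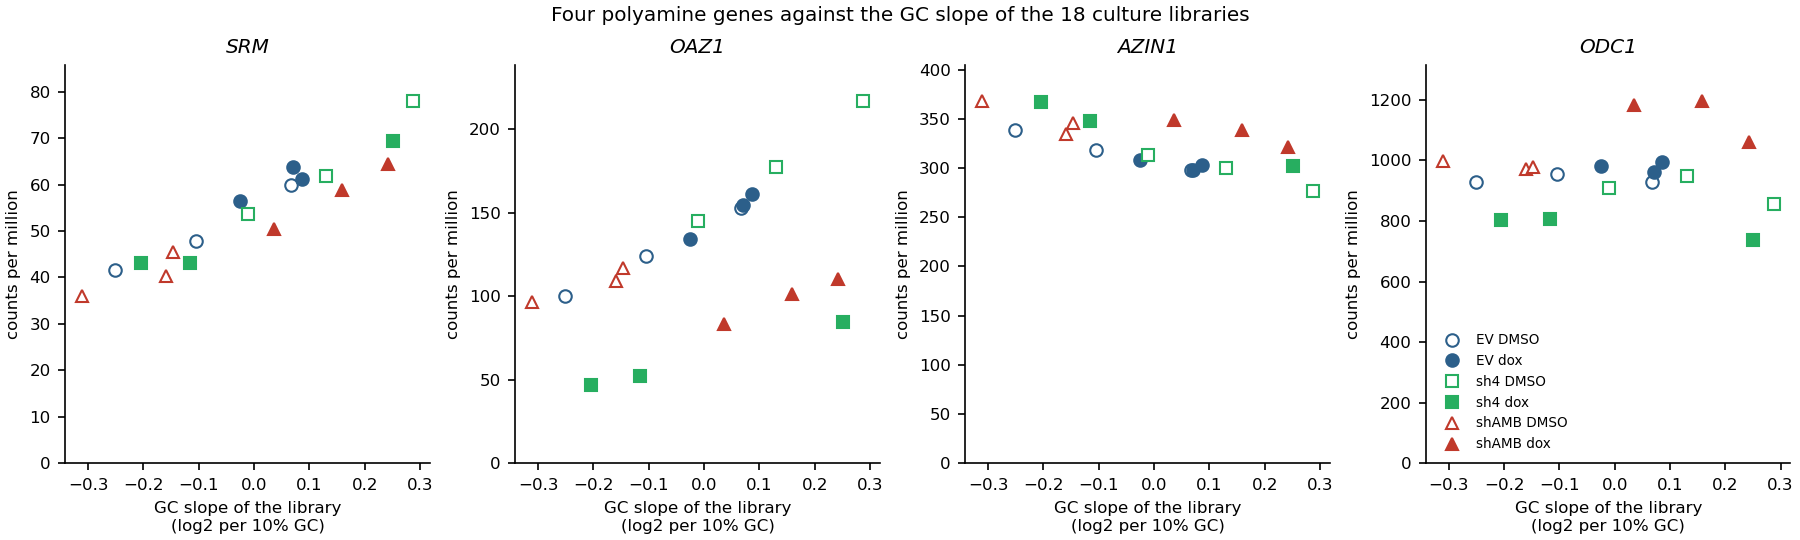
CPM of 4 members (linear axes from 0) against the GC slope of each of the 18 culture libraries, in log2 per 10% GC, with open symbols for DMSO and filled symbols for doxycycline. SRM and OAZ1 rise with the slope and AZIN1 falls with it, while the sh4 doxycycline libraries lie below the other libraries of like slope for OAZ1.

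Among the regulators, OAZ1 (chr19:2269486-2273488, plus strand), the main antizyme gene, fell in sh4 by about as much as SMS. It measured 216, 177 and 145 CPM after DMSO and 47.1, 52.5 and 84.4 after doxycycline, without overlap. OAZ1 fell by 1.55 (SE 0.20, adjusted p = 1.76e-05), 2.93-fold lower, and by 1.11 with trends removed (adjusted p = 2.8e-15). In EV the values were 100.3, 124 and 153 after DMSO and 155, 161 and 134 after doxycycline. In shAMB it measured 109, 96.3 and 117 after DMSO and 83.7, 101 and 110.4 after doxycycline, which overlapped (-0.13, adjusted p = 0.587). The trend-removed value there was -0.73 with an adjusted p of 2.73e-13, so the shAMB result rests on this setting. In the tumours the control values were 105, 146, 171 and 162 and the KO values 113, 71.6, 90.8 and 57.1, where the highest KO value exceeded the lowest control value. OAZ1 fell there by 0.81 (SE 0.21, adjusted p = 0.00936) and by 0.70 with trends removed (adjusted p = 6.69e-06), while on TPM values the adjusted p was 0.121. Within groups OAZ1 followed the GC slope with a correlation of 0.995 in culture and 0.967 in the tumours. Of its exon bases, 6.4% overlap another gene on the same strand and 6.87% on the other strand.

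OAZ2 (chr15:64687574-64703281, minus strand), a further antizyme gene, and AZIN1, the antizyme inhibitor gene, changed little. OAZ2 measured 97.1, 98.5 and 96.7 CPM in sh4 after DMSO and 90.2, 88.8 and 89.7 after doxycycline, and fell by 0.12 (SE 0.04, adjusted p = 0.019). With trends removed this was -0.04 (adjusted p = 0.272), and without the second DMSO or the second doxycycline library the adjusted p was 0.0636 and 0.0627. On TPM values its sign turned (0.053, adjusted p = 0.241). In shAMB the values were 95.9, 93.9 and 93.6 against 98.8, 99.1 and 97.0, which did not overlap (0.06, adjusted p = 0.196). The tumours had 36.7 to 46.9 in control and 38.8 to 47.3 in KO, below the 85.4 to 99.1 of the culture libraries, which were scaled in a separate table and were not tested against them. AZIN1 measured 277, 300.3 and 313 in sh4 after DMSO and 367, 348 and 302 after doxycycline, which overlapped. It rose by 0.19 (SE 0.07, adjusted p = 0.0349), or 0.09 with trends removed (adjusted p = 0.0192), and passed in 5 of 15 alternatives. Without the first or second DMSO library the adjusted p was 0.233 and 0.0687, and without the first or second doxycycline library 0.177 and 0.111. Within culture groups AZIN1 fell with the GC slope, with a correlation of -0.98. In shAMB AZIN1 was 335, 368 and 346 against 349, 338 and 321 (-0.06, adjusted p = 0.489). In the tumours it was 327, 265, 293 and 283 against 309, 331, 359 and 369 (0.23, adjusted p = 0.079), and the adjusted p was 0.0412 without the first KO tumour.

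The catabolic genes were the least abundant. SAT1 (chrX:23783173-23786210, plus strand), the acetyltransferase gene, measured 2.67, 2.46 and 2.57 CPM in sh4 after DMSO and 3.40, 3.76 and 2.80 after doxycycline. All doxycycline values were higher, yet the difference missed the threshold (0.37, adjusted p = 0.0587), and it passed with trends removed (0.50, adjusted p = 0.00797) and without the third doxycycline library (adjusted p = 0.0161). The sh4 effect was above the EV effect by 0.64 (SE 0.22, adjusted p = 0.035), with EV at 2.56, 2.75 and 2.51 after DMSO and 2.18, 1.71 and 2.64 after doxycycline. That call was lost without any 1 of 9 of the 12 libraries, with adjusted p of 0.0512 to 0.0979, and was kept without the third EV DMSO, EV doxycycline or sh4 doxycycline library. In shAMB it was 2.98, 2.24 and 2.46 against 2.73, 2.396 and 2.77 (0.04, adjusted p = 0.842), and in the tumours 2.13, 1.92, 2.02 and 1.51 against 1.5, 2.67, 2.71 and 2.38 (0.29, adjusted p = 0.339).

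SMOX (chr20:4148828-4187727, plus strand), the spermine oxidase gene, measured 0.936, 0.754 and 0.856 CPM in shAMB after DMSO and 1.77, 2.38 and 2.4 after doxycycline. It rose by 1.36 (SE 0.36, adjusted p = 0.00341), 2.57-fold, and by 0.70 with trends removed (adjusted p = 0.00269). The shAMB effect did not pass against the EV effect (1.21, adjusted p = 0.0676), and did with trends removed (0.79, adjusted p = 0.0198) and without the first EV DMSO library (1.47, adjusted p = 0.0328). In sh4 it was 2.08, 1.53 and 1.13 after DMSO and 1.18, 1.21 and 3.02 after doxycycline, where the third doxycycline library stood apart and also had the highest GC slope of its group. Without that library the log2 change was -0.41 and with all libraries 0.17, and with trends removed it was 0.47 (adjusted p = 0.0275). The tumours had 0.576, 1.08, 0.860 and 1.00 in control and 1.90, 1.51, 1.62 and 0.711 in KO (0.71, adjusted p = 0.103), and it passed without the fourth KO tumour (adjusted p = 0.0176) and with trends removed (0.69, adjusted p = 0.0203). PAOX (chr10:133379262-133391694, plus strand), whose exon bases overlap another gene on the same strand by 61.0%, measured 0.123, 0.104 and 0.107 in shAMB after DMSO and 0.403, 0.455 and 0.600 after doxycycline. The fitted difference was 2.09, from 4 or 5 counts per DMSO library, and is given with no test because PAOX entered the culture fit only through the shAMB doxycycline group. In the tumours PAOX was 0.128, 0.316, 0.251 and 0.167 in control (6 to 14 counts) and 0.488, 0.580, 0.623 and 0.384 in KO (20 to 40 counts). The fitted difference was 1.27 (SE 0.35). It is given with no test because the filter needed 4 tumours above its level, which the control group alone did not supply. The level of PAOX is uncertain, since reads of the overlapping gene could be counted with it.

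**Figure D4:**
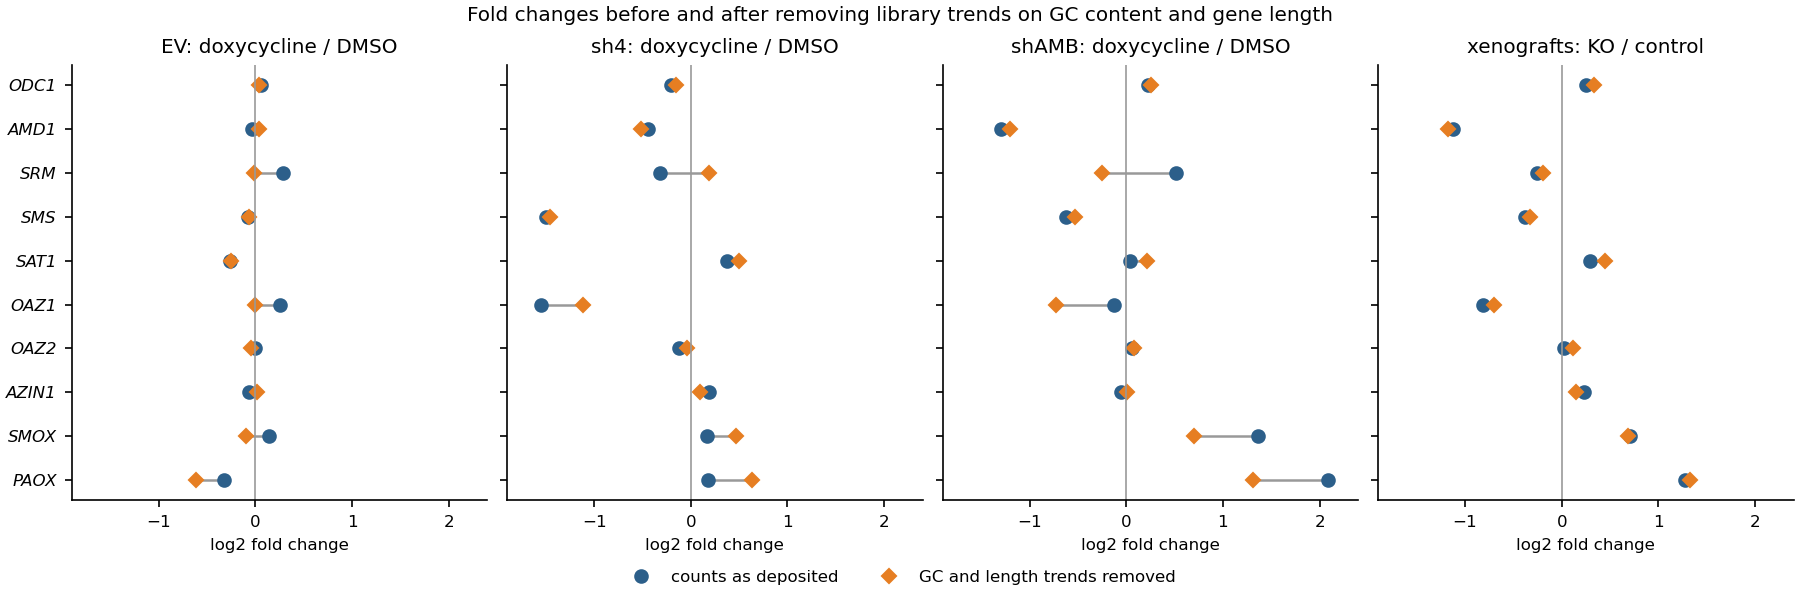
Log2 fold changes from the counts as deposited (circles) and with the GC content and gene length trends of each library removed (diamonds), for the 3 lines and the tumours. SRM changes sign in sh4 and shAMB, OAZ1 in shAMB moves from -0.13 to -0.73, and AMD1 and SMS stay below 0 in sh4, shAMB and the tumours.

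Differences between the doxycycline effects of the lines were tested as interaction terms. Against the EV effect, the sh4 effect was higher for 2 members and lower for 4, beside 17.8% and 14.7% of all genes. The shAMB effect was higher for 1 and lower for 2, beside 23.7% and 21.7%, the 1 being PAOX with the limit given above. Between the hairpins, the sh4 effect was higher for 2 (AMD1 and AZIN1) and lower for 7 with PAOX among them, beside 27.8% and 33.1%, and SAT1 alone did not pass. AMD1 and SMS were below the EV effect under both hairpins, by 0.40 (SE 0.11) and 1.42 (SE 0.09) in sh4 and by 1.26 (SE 0.11) and 0.55 (SE 0.09) in shAMB. The AMD1 difference in sh4 did not pass on TPM (-0.19, adjusted p = 0.215). OAZ1 was below it in sh4 by 1.81 (SE 0.29, adjusted p = 0.000192), while in shAMB the difference was -0.39 (SE 0.28, adjusted p = 0.284). With trends removed these were -1.11 (adjusted p = 8.65e-13) and -0.73 (adjusted p = 9.27e-11).

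Ratios of counts within a library do not depend on how libraries are scaled. With 3 libraries against 3 the exact two-sided permutation test cannot give a p below 0.1, and with 4 against 4 not below 0.0286, and 4 ratios were tested in each comparison. The log2 ratio of ODC1 to its antizyme OAZ1 was 2.35 ± 0.338 after DMSO and 3.72 ± 0.517 (SD, n = 3) after doxycycline in sh4, a 2.59-fold difference without overlap (exact p = 0.1, adjusted 0.133). In the tumours it was 2.59 ± 0.384 in control and 3.67 ± 0.560 in KO (n = 4, exact p = 0.0571, adjusted 0.171), and in shAMB 3.20 ± 0.159 and 3.55 ± 0.278 (exact p = 0.2, adjusted 0.267). SRM to SMS was 2.24-fold higher in sh4 and 2.20-fold higher in shAMB after doxycycline, without overlap (both exact p = 0.1, adjusted 0.133 and 0.2), while in the tumours it differed by 0.10 on the log2 scale (exact p = 0.743, adjusted 0.914). ODC1 to SAT1 was 1.48-fold lower in sh4 (exact p = 0.1, adjusted 0.133) and differed by -0.01 on the log2 scale in the tumours (exact p = 0.914). In EV, without a hairpin, this ratio was 1.27-fold higher after doxycycline, also without overlap (exact p = 0.1, adjusted 0.267). SMOX to PAOX rests on a few PAOX counts, and was 1.56-fold lower in shAMB (exact p = 0.1, adjusted 0.2). SRM, OAZ1 and SMOX carry the GC dependence given above into these ratios. SMS carries the opposite one, with a within-group correlation of -0.947 with the GC slope in culture, against 0.98 for SRM. With trends removed, SRM and SMS changed by -0.26 and -0.53 in shAMB and by 0.18 and -1.46 in sh4.

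**Figure D5:**
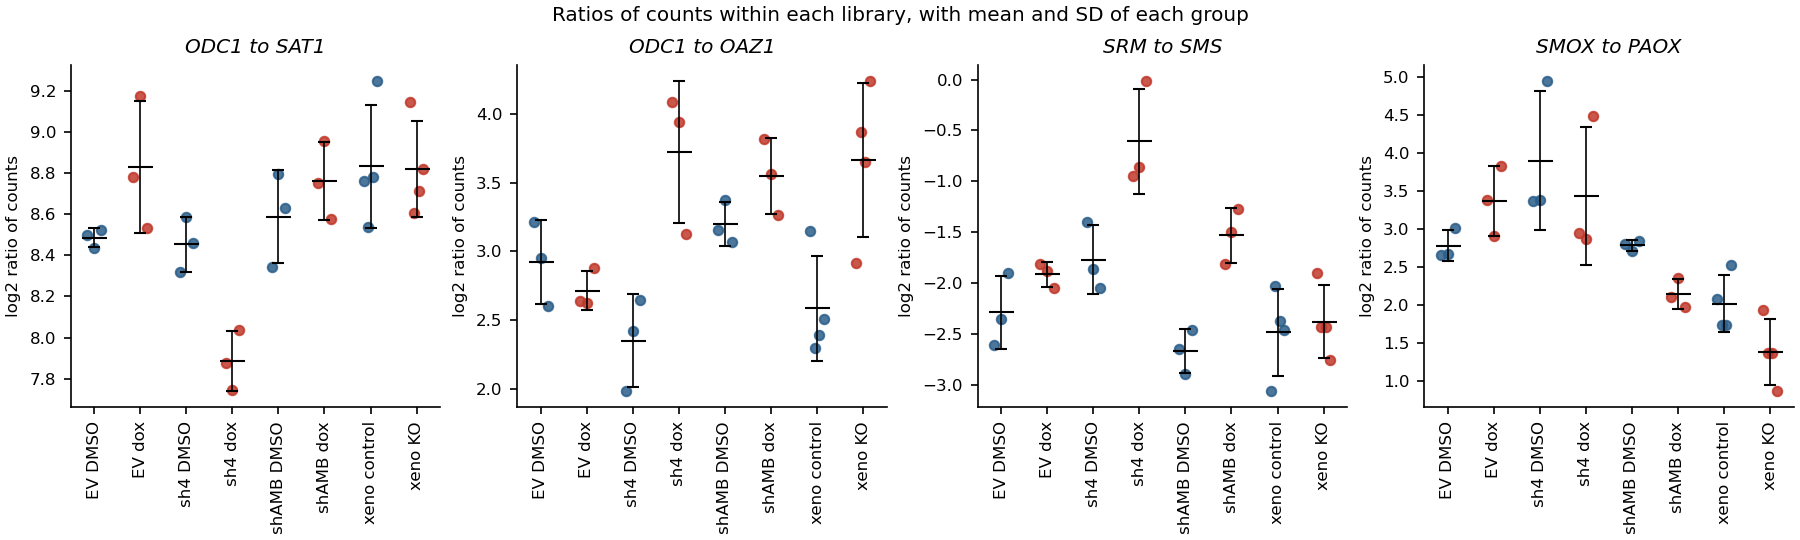
Log2 ratios of counts within each library for 4 pairs of members, by group, with blue points for uninduced and red for doxycycline samples, and bars for the mean and SD (n = 3 in culture, n = 4 in tumours). The ODC1 to OAZ1 ratio of the sh4 libraries lies between 1.98 and 2.65 after DMSO and between 3.13 and 4.09 after doxycycline.

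The genes around the pathway were taken as lists. Of the 8 tested genes that supply S-adenosylmethionine or salvage methionine from the by-product of polyamine synthesis, none rose and 4 fell in sh4, none rose and 6 fell in shAMB, and none rose and 6 fell in the tumours, with medians of -0.17, -0.45 and -0.47. Over all genes 18% fell in sh4, 28.4% in shAMB and 19.9% in the tumours. With trends removed, 1 rose and 4 fell in sh4, 1 rose and 7 fell in shAMB, and 7 fell in the tumours. These are to be read against the all-gene counts with trends removed, given above. MTAP, which clears that by-product, fell by 1.16 in sh4 (SE 0.06, adjusted p = 2.83e-10), by 0.39 in shAMB (SE 0.06, adjusted p = 1.64e-05) and by 0.81 in the tumours (SE 0.10, adjusted p = 0.000115). AHCY, which clears S-adenosylhomocysteine, fell by 0.42, 0.72 and 1.16 (adjusted p = 0.001, 2.82e-06 and 4.96e-05), with trend-removed values of -0.19, -1.06 and -1.08. MAT2A, which makes S-adenosylmethionine, fell by 0.32 in sh4 (adjusted p = 0.000629) and 0.48 in shAMB (adjusted p = 5.44e-06), and in the tumours the change was -0.22 (adjusted p = 0.0715), which passed with trends removed (-0.23, adjusted p = 0.0195).

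Of the 6 tested genes of ornithine and arginine supply, 5 rose and none fell in sh4, 2 rose and 4 fell in shAMB, and 1 rose and 3 fell in the tumours. Over all genes the shares that rose and fell were 22.9% and 18% in sh4, 37.6% and 28.4% in shAMB, and 21.2% and 19.9% in the tumours. The counts of the lists that follow are to be read against the same shares. Those with trends removed are to be read against the all-gene counts at that setting, given above. ASS1, argininosuccinate synthase, measured 69.9, 59.5 and 74.6 CPM in shAMB after DMSO and 689, 812 and 845 after doxycycline, a rise of 3.52 (SE 0.16, adjusted p = 4.17e-11). In the tumours ASS1 was 61.1 to 78.2 in control and 380.4 to 565 in KO and rose by 2.74 (SE 0.16, adjusted p = 3.31e-06), and in sh4 it rose by 0.38 (adjusted p = 0.0461), or 0.66 with trends removed (adjusted p = 9.37e-11). ARG2, the mitochondrial arginase that releases ornithine, rose by 0.56 in sh4 (adjusted p = 1.41e-06) and fell by 0.61 in shAMB (adjusted p = 2.5e-07) and by 0.54 in the tumours (adjusted p = 0.00353). ALDH18A1, which feeds glutamate toward ornithine and proline, showed the same signs, at 0.25, -0.64 and -0.95 (adjusted p = 0.000168, 2.99e-09 and 6.65e-05).

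EIF5A, the translation factor whose hypusine residue is built from spermidine, fell by 0.48 in sh4 (adjusted p = 0.00395), 0.32 in shAMB (adjusted p = 0.0247) and 0.71 in the tumours (adjusted p = 0.0012). With trends removed EIF5A was -0.15 in sh4 and -0.66 in shAMB, the reverse order. DHPS, which starts hypusine formation, rose by 0.96 in shAMB (adjusted p = 0.00012), where the change in sh4 was -0.22 (adjusted p = 0.31). With trends removed DHPS was 0.11 in sh4 (adjusted p = 0.00729), 0.595 in shAMB (adjusted p = 1.64e-11) and 0.52 in the tumours (adjusted p = 0.000306). Of the 4 genes of this list, 1 rose and 1 fell in sh4, 2 rose and 1 fell in shAMB, and 1 rose and 1 fell in the tumours. Among 9 tested transport genes 2 rose and 1 fell in sh4 and 3 rose and 1 fell in shAMB, and among 10 in the tumours none rose and 4 fell. With trends removed the transport counts were 4 and 1 in sh4 and 2 and 2 in shAMB. Against the EV effect, on the counts as deposited, they were 3 and 0 in sh4 and 0 and 1 in shAMB. Over all genes those shares were 17.8% and 14.7% in sh4 and 23.7% and 21.7% in shAMB. SLC18B1, a vesicular polyamine transporter, was the single context gene that passed in EV, where it measured 67.8, 63.5 and 60.0 after DMSO and 41.1, 40.6 and 42.4 after doxycycline and fell by 0.62 (SE 0.06, adjusted p = 0.000156). In sh4 SLC18B1 fell by 0.22, less than after doxycycline in EV, which has no hairpin. It fell by 1.35 in shAMB and by 1.03 in the tumours, which had no EV group. Of the 4 tested homologues and catabolic enzymes, 1 rose in sh4 (2 with trends removed), 4 in shAMB and 2 in the tumours, and none fell. OAZ3, an antizyme gene known from testis, rose by 1.12, 1.57 and 1.04 from means under 1 CPM (adjusted p = 0.0079, 0.000586 and 0.0196), and SAT2 rose by 0.85 in shAMB and 0.74 in the tumours (adjusted p = 2.34e-06 and 0.00179). Against the EV effect none of these 4 genes passed in sh4, OAZ3 included, and 2 were higher in shAMB. S-adenosylmethionine genes had 0 higher and 3 lower in sh4 against EV, and 0 and 6 in shAMB. Ornithine and arginine genes had 4 and 0, then 2 and 3, and hypusine genes 1 and 1, then 2 and 1.

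MYCN, whose product is a known activator of ODC1, rose in sh4 and shAMB after doxycycline and in the KO tumours. Its CPM were 2323, 2218 and 2035 in sh4 after DMSO and 3246, 3202 and 4090 after doxycycline, and 2085, 2130 and 2170 against 5944, 6442 and 6561 in shAMB. MYCN rose by 0.68 in sh4 (SE 0.08, adjusted p = 4.62e-06), 1.57 in shAMB (SE 0.08, adjusted p = 1.8e-10) and 1.46 in the tumours (SE 0.14, adjusted p = 3.14e-05). Its partner MAX fell by 0.22, 0.59 and 0.48 (adjusted p = 0.00362, 1.57e-07 and 0.00234), and in sh4 the fall of MAX did not pass with trends removed (-0.10, adjusted p = 0.117). In EV neither passed the threshold.

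Over the 18 culture libraries, the 5 genes whose log2 level was most alike to ODC1 among 12709 genes were C21orf59, TMEM57, TCEAL1, PPP3CA and ACSL1, with Pearson correlations of 0.967 to 0.970. For SAT1 they were RBM41, MAST4, VHL, ATP10D and NOX4, at 0.775 to 0.792. These are descriptions over libraries that share lines and treatments. No other member was among them, and among the 9 members other than PAOX the strongest negative pair was SRM with AZIN1, at -0.856. SRM and AZIN1 also correlated with the GC slope of these libraries, at 0.956 and -0.735. How much of the pair's value comes with that slope was not tested.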

How the data were processed

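RNA was sequenced from 18 KELLY culture libraries and 8 xenografts. The authors deposited expected counts and TPM per gene, with gene lengths. The submitters' processing notes name STAR, SAMtools, RSEM and hg38, without versions. The paper's methods give versions of these tools for its mouse ganglia libraries, and none is stated for the libraries used here. Labels name both polyA RNA and a stranded total RNA kit.

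The deposited expected counts were rounded, filtered (filterByExpr, minimum count 10) and scaled by TMM. The 18 culture libraries were fitted together and the 8 tumours alone with edgeR 4.0.16 (quasi-likelihood F test, two-sided, Benjamini-Hochberg adjustment over all genes tested, R 4.3.3). Genes named are the 10 members, 5 context lists, 4 reference genes, and the 5 genes most alike to ODC1 and to SAT1. The members and lists were chosen with earlier results of these data known. Trends on GC content (longest GENCODE v44 transcript) and gene length were removed by offsets (lowess span 0.3). The deposited TPM were tested as log2(TPM + 0.1) with limma 3.58.1, and DESeq2 1.42.0 was run on the rounded counts. Other alternatives were another scaling, no filter, small RNA genes removed, a replicate block, each line alone and each library left out. Ratios had 0.5 added to each count. RPKM used the deposited lengths. The fit and the trend removal were tested on simulated data. All replicate pairs differed beyond sampling noise. The labels do not say whether replicates were separate cultures, so p-values measure the spread between these libraries, which may be technical. The check of the cell line against its neuroblastoma markers is not reported here.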

Additional observations from a re-analysis of the deposited data

Results flagged for a closer look

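ODC1 in the control tumours had 1 library far below the others, at 718.7 CPM in the second tumour, with a gap to the next of 0.837 of the group's range, above Dixon's critical value for 4 samples. Of 20 groups of 4 checked, this was the single one to pass, and chance alone gives about 1 in 20.

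Effects of doxycycline that differed between lines, by a test of the difference itself on the log2 scale, were as follows. The sh4 effect was below the EV effect for ODC1 (-0.27), AMD1 (-0.40), SMS (-1.42) and OAZ1 (-1.81), and above it for SAT1 (0.64) and AZIN1 (0.26). The shAMB effect was below the EV effect for AMD1 (-1.26) and SMS (-0.55), and above it for PAOX (2.41), which had 2 to 7 counts per EV library and entered the culture fit only through the shAMB doxycycline group, so neither of its differences is support for a change. The sh4 effect was below the shAMB effect for ODC1 (-0.43), SRM (-0.83), SMS (-0.87), OAZ1 (-1.42), OAZ2 (-0.18), SMOX (-1.19) and PAOX (-1.91), and above it for AMD1 (0.86) and AZIN1 (0.25). With the GC and length trends removed, for sh4 minus shAMB SRM turned to 0.44, OAZ1 was -0.38, and SMOX, PAOX and AZIN1 no longer passed (adjusted p = 0.438, 0.357 and 0.125). For sh4 minus EV, AZIN1 no longer passed with trends removed (0.08, adjusted p = 0.172). On TPM neither ODC1 (-0.051, adjusted p = 0.549) nor AMD1 (-0.19, adjusted p = 0.215) passed for sh4 minus EV, nor did AMD1 with the replicate block (adjusted p = 0.0723) or ODC1 with the block and trends removed (adjusted p = 0.0779).

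Some of these rest on single libraries. The AZIN1 difference for sh4 minus EV missed the threshold without any 1 of 9 libraries (adjusted p = 0.068 to 0.183), the exceptions being the third EV DMSO, the third sh4 DMSO and the third sh4 doxycycline library. For sh4 minus shAMB, AZIN1 missed it without the first or the second library of either sh4 group, or the second or the third of either shAMB group (adjusted p = 0.0506 to 0.102). SMOX missed it without any 1 of 9 libraries (adjusted p = 0.0607 to 0.127), the exceptions being the third sh4 DMSO, the third sh4 doxycycline and the first shAMB doxycycline library, and PAOX without the first sh4 DMSO library (adjusted p = 0.123).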

How the results depend on the processing

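Of 34 changes of members past the threshold, 31 kept their sign and 19 stayed past the threshold in every alternative. Among the 19 is SRM for sh4 minus shAMB, which passed in opposite directions (-0.83, and 0.44 with trends removed). PAOX in shAMB and for shAMB minus EV is also among them, and neither is support for a change. The members past it numbered 3 of 10 in place of 6 for sh4 when its libraries were fitted alone. For sh4 minus EV they numbered 3 in place of 6 with the replicate block. For shAMB minus EV they numbered 7 in place of 3 with trends removed, 6 with the block and trends removed, and 7 on TPM. In the tumours they numbered 1 in place of 4 on TPM, and 3 to 7 with each library left out. Calls over all genes moved too. They were 2181 higher and 1546 lower of 14435 for sh4 alone (3410 and 2681 of 14905 in the main fit). With the block they were 1570 and 1143 for sh4 minus EV (2659 and 2197). For shAMB minus EV (3539 and 3237) they were 3784 and 4560 with trends removed, and 3324 and 4199 with the block too. On TPM they were 5783 and 1828 of 15578 there, and 1247 and 547 of 15038 in the tumours (3382 and 3173 of 15960). Replicate numbers did not pair the samples: same-numbered deviations correlated between -0.60 and 0.37 over the comparisons within a line or in the tumours.

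Signs turned mainly for changes near 0, but also at changes past the threshold for SRM (0.51 in shAMB, -0.83 for sh4 minus shAMB) and OAZ2 (-0.12 in sh4). With trends removed (in brackets with the block too), these were AMD1 at 0.041 (0.041), SRM at -0.017 (-0.016), OAZ1 at -0.0048 (-0.0052), AZIN1 at 0.0146 (0.0145) and SMOX at -0.094 (-0.094) in EV, SRM at 0.18 (0.18) in sh4, -0.26 (-0.26) in shAMB, 0.20 (0.20) for sh4 minus EV, -0.24 (-0.24) for shAMB minus EV and 0.44 (0.44) for sh4 minus shAMB, and AZIN1 at 0.0126 (0.0125) in shAMB and -0.0020 (-0.0020) for shAMB minus EV. With DESeq2 (its size factors in edgeR in brackets), SAT1 at -0.041 (-0.037) and OAZ2 at -0.019 (-0.017) turned in shAMB and AZIN1 at -0.039 (-0.037) for shAMB minus EV. On TPM, OAZ2 in sh4 (0.053), OAZ1 (0.049) and AZIN1 (0.13) in shAMB and OAZ2 for sh4 minus EV (0.10) turned. Without the filter, SAT1 in shAMB (-0.0084), SMOX for sh4 minus EV (-0.0074), AZIN1 for shAMB minus EV (-0.031) and OAZ2 in the tumours (-0.037) turned. With shAMB alone, SAT1 (-0.045) and OAZ2 (-0.023) turned, and with the block SMOX for sh4 minus EV (-0.076). The cause was not tested.

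With each library left out, ranges that crossed 0 were, in EV, -0.092 to 0.021 (AMD1), -0.049 to 0.021 (OAZ2) and -0.11 to 0.35 (SMOX). They were -0.41 to 0.40 (SMOX) and -0.22 to 0.68 (PAOX) in sh4, -0.055 to 0.16 (SAT1) in shAMB, -0.56 to 0.28 (SMOX, sh4 minus EV), -0.036 to 0.056 (AZIN1, shAMB minus EV) and -0.042 to 0.072 (OAZ2, tumours). For ratios they were -0.12 to 0.13 (ODC1 to SAT1) and -0.091 to 0.25 (SRM to SMS) in the tumours and -0.99 to 0.063 (SMOX to PAOX) in sh4.

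Over all genes, TPM shifted the median change to 0.16 in sh4 and 0.27 in shAMB, from -0.0046 and 0.10. Genes higher and lower were then 5732 and 1400 in sh4 (3410 and 2681 on counts), 7547 and 2802 in shAMB (5602 and 4238), 5178 and 1036 for sh4 minus EV (2659 and 2197), 5783 and 1828 for shAMB minus EV (3539 and 3237), and 1247 and 547 in the tumours (3382 and 3173). For sh4 minus shAMB, 4145 were higher and 4933 lower, against 5631 and 3913 with trends removed. In EV, 2 and 12 became 3 and 17 with DESeq2, 11 and 24 with trends removed, and 1 and 1 with the block. In sh4 alone the split was 2181 and 1546. PAOX, SMOX and SAT1 are limited by their counts of 1 to 40, 27 to 136 and 68 to 193 per library.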
